A study of Mus musculus with 23 samples.

Results

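The cortex of *Bhlhe40* knockout (KO) mice was compared with that of wild-type (WT) mice on 4 arrays of each genotype, 8 of the 23 arrays of the study. Each array held the RNA of the cortex of 1 male mouse aged 3 to 5 months, on a C57Bl/6 background. WT and KO animals had no treatment other than an overnight fast and isoflurane anesthesia, and the tissue was taken around midday. The *Bhlhe40* KO was a constitutive deletion, present in every cell from conception, which had been crossed into C57Bl/6 from another background over several generations. The deletion, any donor-strain DNA that remained near it and any difference between the cohorts of mice cannot be told apart with these groups. Hippocampus and cerebellum of the same mice were on the other arrays, but cerebellum had only 3 WT arrays. The mouse of cortex WT replicate 2 had no cerebellum array. A gene was included when a probe for it was detected in at least 3 of the 8 cortex arrays, which kept 9720 of the 16593 genes on the array.

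*Bhlhe40*, also called Dec1 or Stra13, encodes a basic helix-loop-helix repressor that binds the E-box CACGTG in promoters. It is induced by many stimuli, among them neuronal activity, and it forms a feedback loop of the circadian clock by acting at the E-boxes that Clock and Arntl use for activation. The comparison therefore asks which cortical transcripts differ when this repressor is missing. In bulk tissue, fewer cells of a type and less RNA per cell cannot be told apart.

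The arrays overlapped in depth of signal and did not separate fully by genotype. The median bead signal was 185 to 201.4 in WT and 170.8 to 196.2 in KO arrays, and 52.7 to 54.3% of probes were detected. The correlation between arrays of the same genotype was 0.9929 to 0.996 and that between genotypes 0.9885 to 0.9954. KO replicate 3 correlated more with the WT arrays (mean r = 0.9946) than with the other KO arrays (mean r = 0.9937), and with complete linkage it clustered with the WT arrays. With average linkage, WT replicate 2 stood alone. Principal component 1, with 32.7% of the variance, ran from -15.3 to 0.00776 in WT and from -2.04 to 13.4 in KO arrays, so the genotypes overlapped. Results that depend on these arrays are given with and without them. Markers of neurons (*Map2*, *Syt1*, *Rbfox3*), of cortical excitatory neurons (*Slc17a7*, *Tbr1*, *Camk2a*) and of interneurons (*Gad1*, *Sst*, *Pvalb*) were detected, and the probes for *Gabra6* and *Pcp2*, which mark cerebellar neurons, were detected in 0 of the 8 cortex arrays. Of the listed markers on the array, 7 of 10 for neurons, 16 of 17 for excitatory neurons and 11 of 14 for interneurons met the detection filter. So did 4 of 10 for cerebellar neurons. *Neurod6*, of the excitatory list, was detected in 0 cortex arrays and in 6 arrays of other tissues. The probes for *Snap25*, *Nefl*, *Gad2*, *Lhx6* and *Crh* were detected in 0 of the 23 arrays of any tissue, so these probes could not be used to check the tissue.

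The *Bhlhe40* transcript was reduced in every KO array. *Bhlhe40* (chromosome 6, 108660629 to 108666925 of GRCm38.p6) had a bead signal of 4443, 4211, 4156 and 4633 in the WT arrays. In the KO arrays it was 210.3, 219.9, 250.5 and 261. The groups were far apart, although the probe was still detected in 4 of 4 KO arrays, where the lowest signal of any probe on these arrays was 111.4. After normalization *Bhlhe40* was 17.7-fold lower in KO cortex, and fell by 4.15 (log2, SE 0.10, limma adjusted p = 1.62e-17). Where the probe lies relative to the deleted exons is not given in the sources used here.

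The E-box CACGTG, which reads the same on both strands, was looked for in the promoters of the genes described here, taken as the 250 bases before and the 50 after each RefSeq start on GRCm38.p6. Of the 9720 genes tested, 7903 had a promoter in the table, and 931 of these (11.8%) held CACGTG. In single windows of this length the share was 7.15% of 32851. Of the 20 genes that passed in cortex, described next, 15 had a promoter in the table and 0 held CACGTG. Of the 19 tested genes of the core clock and its output factors, 17 had a promoter and 3 held it, namely *Ciart*, *Per1* and *Tef*. The related motif CACGCG, or CGCGTG on the other strand, was in 1584 of the 7903 promoters (20%), in 3 of the 15 (*Ccl21b*, *Fgfbp3* and *Gldn*) and in 11 of the 17. The sequences below are shown because they set the gene that rose most, *Chl1*, beside the clock gene with the most E-boxes, *Ciart*, and a main target of the clock, *Per1*. They run 5′ to 3′, with CACGTG in capitals.
Chl1, chr6:103510626-103510925, plus strand: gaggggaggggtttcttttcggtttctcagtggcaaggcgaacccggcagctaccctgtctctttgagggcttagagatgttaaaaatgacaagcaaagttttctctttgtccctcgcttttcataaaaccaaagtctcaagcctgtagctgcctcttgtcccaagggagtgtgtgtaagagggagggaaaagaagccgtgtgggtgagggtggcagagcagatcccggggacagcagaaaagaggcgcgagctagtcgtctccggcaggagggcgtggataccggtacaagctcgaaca
Ciart, chr3:95882179-95882478, minus strand: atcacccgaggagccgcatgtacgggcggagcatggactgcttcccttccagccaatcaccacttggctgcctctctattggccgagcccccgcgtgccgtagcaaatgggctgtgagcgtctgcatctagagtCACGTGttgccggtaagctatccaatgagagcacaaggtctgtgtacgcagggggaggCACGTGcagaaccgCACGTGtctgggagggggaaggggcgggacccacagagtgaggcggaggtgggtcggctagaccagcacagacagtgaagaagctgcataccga
Per1, chr11:69098699-69098998, plus strand: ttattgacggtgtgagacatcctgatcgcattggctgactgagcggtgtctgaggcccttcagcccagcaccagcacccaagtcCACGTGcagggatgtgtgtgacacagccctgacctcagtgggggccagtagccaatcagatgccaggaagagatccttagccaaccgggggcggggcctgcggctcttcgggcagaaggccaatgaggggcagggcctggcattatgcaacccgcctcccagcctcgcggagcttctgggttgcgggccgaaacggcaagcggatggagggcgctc
The *Chl1* window held no CACGTG. It begins after the first base of the gene in RefSeq (103510584), so the sequence before that base was not searched. The windows of *Npy2r* and *Ncapd2* also lay inside the bounds of the gene. In *Ciart* the motif began 116, 58 and 44 bases before the start of the gene, and in *Per1* 166 bases before it. A match describes these letters and is not a binding site shown here.

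Few genes of the cortex passed the threshold used here, with 4 arrays of each genotype. At its own thresholds, given below, the paper describes many significant differences in each tissue. At an adjusted p under 0.05 from limma, 20 genes passed, which is 0.206% of the 9720 tested, with 11 higher in KO (0.113%) and 9 lower (0.0926%). Their median size was 0.64 on the log2 scale, and the smallest was 0.39. Changes over 1.5-fold were found in 20 genes, of which 6 higher and 5 lower genes passed and 9 did not. In each of the 20 genes that passed, every KO array lay on the same side of every WT array after normalization. This held for 413 genes in all (4.25% of those tested), 170 with KO above WT (1.75%) and 243 with KO below WT (2.5%). The median difference of all genes was -0.00456, and -0.035 with median centring. Without both WT replicate 2 and KO replicate 3, a choice made after seeing the clusters, 22 genes were higher and 10 lower. An unadjusted p under 0.05 was reached by 904 genes (9.3%), 457 higher and 447 lower, and with median centring in place of Z normalization by 262 higher and 602 lower. At the thresholds of the study (an unadjusted p under 0.05, a false discovery rate under 0.3 and an F test with p under 0.05 across the tissues and genotypes), the calls rose to 48 genes above (0.494%) and 34 below WT (0.35%), 0.844% in all, and with median centring 31 and 41.

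**Figure D1:**
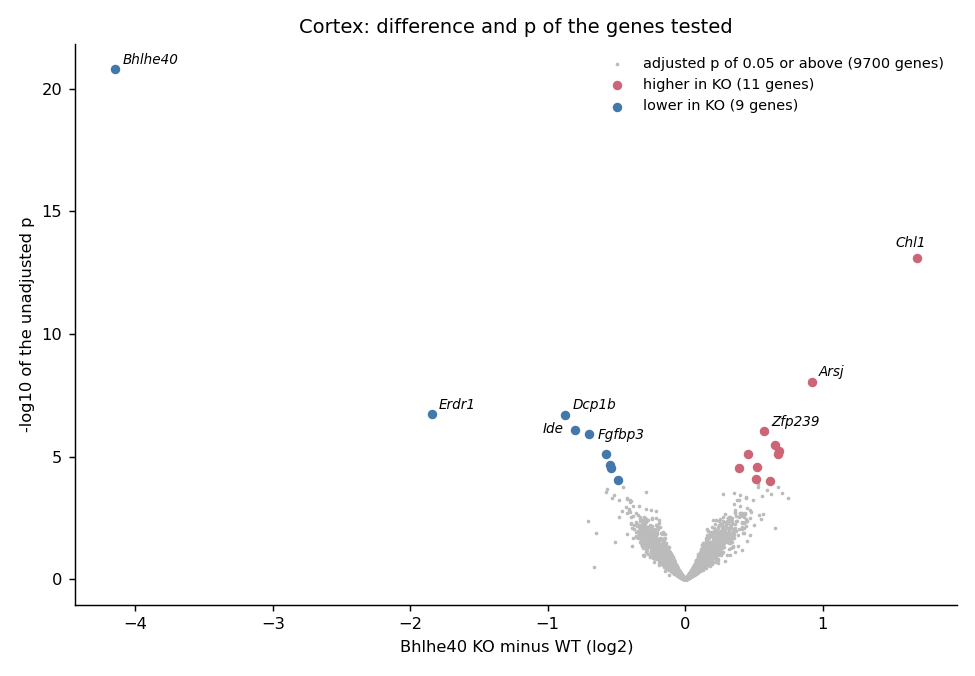
Each point is 1 of the 9720 genes tested in cortex, with the KO minus WT difference (log2) on the x axis and -log10 of the unadjusted limma p on the y axis. The 11 higher and 9 lower genes with an adjusted p under 0.05 are coloured, and *Bhlhe40* (-4.15) and *Chl1* (1.69) have the smallest p.

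*Chl1*, which encodes a neural cell adhesion molecule of the L1 family that takes part in neurite outgrowth, was the gene that rose most. Its bead signal (chromosome 6, 103510584 to 103733038) was 685, 665, 659 and 604 in WT. In KO it was 1515, 1824, 2013 and 2113, so that the lowest KO array lay well above the highest WT array. *Chl1* was 3.23-fold higher in KO cortex after normalization, and rose by 1.69 (log2, SE 0.10, limma adjusted p = 4.02e-10). The other probes for *Chl1* on the array were each detected in 2 or fewer of the 8 arrays and give no second measurement.

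Channels, receptors and synaptic proteins made up several of the other genes that passed. *Ano2*, a calcium-activated chloride channel, had a signal of 179.6, 292, 216 and 218 in WT and of 263, 349, 340.4 and 368 in KO. The raw signals overlapped through WT replicate 2, and the normalized values did not. *Ano2* rose by 0.69 (log2, SE 0.11, limma adjusted p = 0.00551). *Npy2r*, *Trhr* and *Gldn* were close to the detection limit. *Npy2r* and *Gldn* met the detection filter only through the KO arrays, where they are higher, and their WT signal was above background in 1 array, so their differences rest on WT readings mostly at background. *Npy2r*, a presynaptic receptor for neuropeptide Y, was detected in 1 of 4 WT and 4 of 4 KO arrays. Its signal was 151, 186, 172 and 159 in WT and 174, 200.5, 235 and 246 in KO, and it rose by 0.46 (log2, SE 0.08, limma adjusted p = 0.00607). *Trhr*, the receptor for thyrotropin-releasing hormone, was detected in 3 of 4 WT and 4 of 4 KO arrays. It read 172, 224, 245 and 199.6 in WT and 228, 262, 331 and 296 in KO arrays, and rose by 0.53 (log2, SE 0.10, limma adjusted p = 0.0172). *Gldn*, gliomedin, which is known for clustering sodium channels at nodes of peripheral nerve, was detected in 1 of 4 WT and 4 of 4 KO arrays. It read 161, 179.5, 177 and 196 in WT and 182, 234, 209.9 and 244 in KO arrays, and rose by 0.39 (log2, SE 0.07, limma adjusted p = 0.0174). For all 3 the dimmest KO array was KO replicate 1, whose raw signal was below that of the brightest WT array. *Cbln4*, a secreted cerebellin that organizes synapses, went the other way. Its signal was 1648, 1611, 1426 and 1869 in WT and 956, 915, 1095 and 1083 in KO, with no overlap, and it fell by 0.55 (log2, SE 0.10, limma adjusted p = 0.0146). *Trh*, the ligand of *Trhr*, had the largest positive difference among the genes that did not pass, 0.75 on the log2 scale (adjusted p = 0.122 from limma), with overlapping groups. *Trh* passed in 5 alternative analyses, among them that without WT replicate 2 (0.96, adjusted p = 0.00282 from limma). It lies on chromosome 6, as *Ano2* does.

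Enzymes and a transporter were found in both directions. *Ide*, the insulin-degrading enzyme, which also cleaves amyloid beta, had a signal of 1179, 948, 1189 and 1183 in WT and 558, 548, 694 and 560.3 in KO, without overlap. *Ide* was 1.75-fold lower in KO cortex and fell by 0.80 (log2, SE 0.12, limma adjusted p = 0.00127). *Arsj*, of the arylsulfatase family, had a signal of 185, 256, 254 and 212 in WT and 353, 342, 408 and 457 in KO, and it rose by 0.92 (log2, SE 0.10, limma adjusted p = 2.87e-05). A second probe for *Arsj*, detected in 4 of the 8 arrays, differed by 0.55 and passed when each probe was tested alone. Its mean signal was 170.7 in WT and 230.4 in KO, near the detection limit as for *Npy2r* and *Gldn*. Its WT readings may therefore be at background, and it is a weak second measurement. *Abcc10*, an ATP-binding cassette transporter that exports drugs, read 459.7, 404, 433 and 390.2 in WT and 471, 602, 662 and 743 in KO, with KO replicate 1 close to WT replicate 1. *Abcc10* rose by 0.68 (log2, SE 0.11, limma adjusted p = 0.00607). *Tmem267*, a transmembrane protein, read 419, 399, 412 and 348 in WT and 228, 225, 265 and 269.5 in KO, and fell by 0.57 (log2, SE 0.10, limma adjusted p = 0.00607). *Dcp1b*, a cofactor of mRNA decapping, read 910.3, 1227, 1097 and 1037 in WT and 392, 515, 601 and 663 in KO, and fell by 0.87 (log2, SE 0.11, limma adjusted p = 0.000384). *Ncapd2*, a subunit of the condensin complex, read 471, 522, 539 and 578 in WT and 305, 330.0, 308 and 404 in KO, and fell by 0.54 (log2, SE 0.10, limma adjusted p = 0.0174). *Dcp1b* and *Ncapd2* each had another detected probe that differed by 0.03 and -0.05 and did not pass, so their calls rest on 1 probe.

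Secreted factors and a zinc finger gene followed. *Fgfbp3*, a binding protein that carries fibroblast growth factors, had a signal of 588, 759, 679 and 705 in WT and 331, 340.2, 434 and 452 in KO, and fell by 0.70 (log2, SE 0.10, limma adjusted p = 0.00141). *Cxcl12*, a chemokine that guides migrating cells, read 1272, 1503, 1212 and 1594 in WT and 1744, 1676, 2452 and 1947 in KO, and rose by 0.65 (log2, SE 0.10, limma adjusted p = 0.00371). The probe used for *Cxcl12* was the brightest of 3 detected probes, and the others differed by -0.22 and -0.03 and did not pass. With the mean of the 3 probes the difference was 0.14 (adjusted p = 0.657 from limma). *Zfp239*, a zinc finger protein, read 1574, 1671, 1739 and 1765 in WT and 1902, 2077, 2499.6 and 2455 in KO. Its normalized values were tight within each genotype, and it rose by 0.58 (log2, SE 0.08, limma adjusted p = 0.00127).

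The remaining genes that passed have near copies in the genome or are annotated as pseudogenes, so which copy the probe reports is uncertain. *Erdr1*, annotated by RefSeq as a transcribed pseudogene on chromosome X, had a signal of 1535, 1468, 890.2 and 955 in WT and 468, 182, 237 and 432 in KO. The groups were apart but varied widely within each genotype, and *Erdr1* fell by 1.84 (log2, SE 0.24, limma adjusted p = 0.000384). *Ccl21b*, a chemokine of lymphoid tissue with near-identical neighbours, read 993, 1120.2, 890.2 and 962 in WT and 620.4, 564, 666 and 728 in KO, and fell by 0.49 (log2, SE 0.10, limma adjusted p = 0.0462). *Pisd-ps2*, a pseudogene of phosphatidylserine decarboxylase, read 283, 212, 268 and 276 in WT and 288, 340.3, 334 and 401 in KO, and rose by 0.51 (log2, SE 0.11, limma adjusted p = 0.0447). *Zxda*, a zinc finger gene of chromosome X that RefSeq lists as a transcribed pseudogene, read 1044, 1008, 1275 and 1289.6 in WT and 1440.3, 1755, 1256 and 1856 in KO. KO replicate 3 lay among the WT arrays before normalization, and *Zxda* rose by 0.62 (log2, SE 0.13, limma adjusted p = 0.0473). *Ccl21b*, *Pisd-ps2* and *Zxda* had the highest adjusted p of the 20 genes and were each lost in at least 12 of the alternative analyses.

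**Figure D2:**
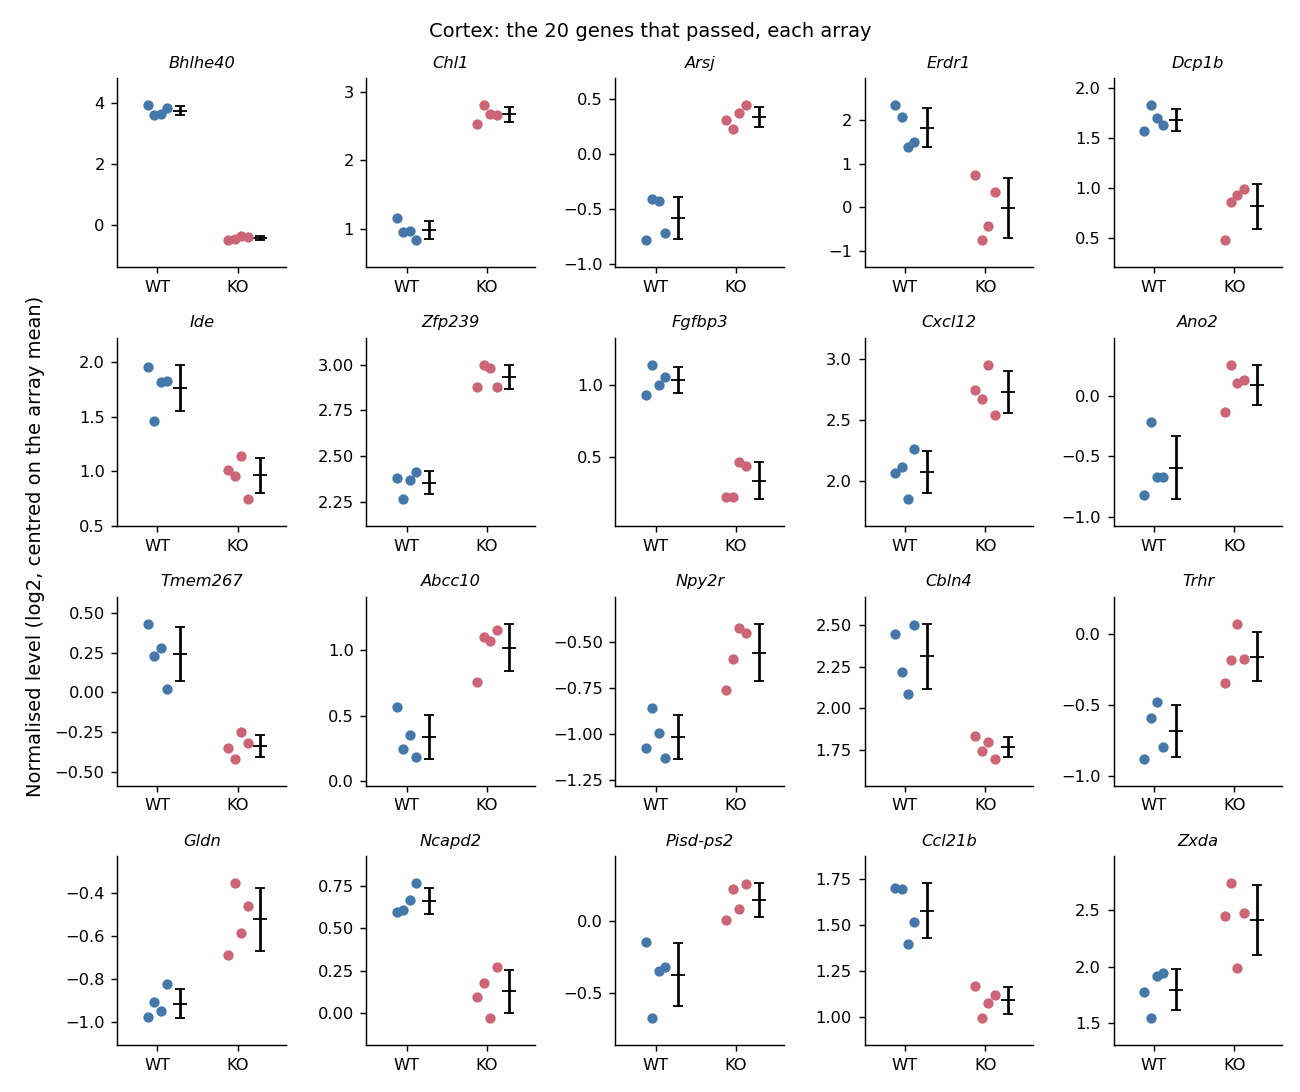
Each panel shows a gene that passed, with the normalized level (log2, centred on the mean of the array) of the 4 WT arrays in blue and the 4 KO arrays in red, and the mean ± SD in black. The genotypes do not overlap in any of the 20 panels, and each panel has its own y range.

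Of the 20 genes, 7 lie on chromosome 6, *Bhlhe40* included, which is 1.41% of the 498 genes tested there against 0.206% of all genes. These were *Bhlhe40*, *Chl1*, *Cxcl12*, *Zfp239*, *Dcp1b*, *Ncapd2* and *Ano2*. The gene starts were 5.15 Mb before that of *Bhlhe40* for *Chl1*, and 8.51 Mb after it for *Cxcl12*, 9.20 Mb for *Zfp239*, 10.5 Mb for *Dcp1b*, 16.5 Mb for *Ncapd2* and 17.0 Mb for *Ano2*. Other than *Bhlhe40*, 6 of 59 genes within 10 Mb and 16 of 111 genes at 10 to 20 Mb showed no overlap between genotypes (10.2% and 14.4%), where 4.25% of all genes did. The share was 5.06% at 20 to 40 Mb, 3.51% at 40 to 60 Mb and 0 of 112 genes beyond 60 Mb. The 20 protein-coding neighbours nearest to *Bhlhe40* in gene order included 10 that were tested, of which *Chl1* passed. *Cntn4*, a contactin that lies between *Chl1* and *Bhlhe40*, was lower in KO by a difference of -0.42 that did not pass (adjusted p = 0.122 from limma). It passed in 4 alternative analyses, among them that without WT replicate 2 (-0.52, adjusted p = 0.0117). *Cntn6*, its neighbour, differed by -0.0086. *Edem1*, 163 kb after *Bhlhe40*, differed by 0.06. Directions were mixed on the chromosome, with 4 of the 7 higher and 3 lower. Strain differences in or near these genes were not tested.

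**Figure D3:**
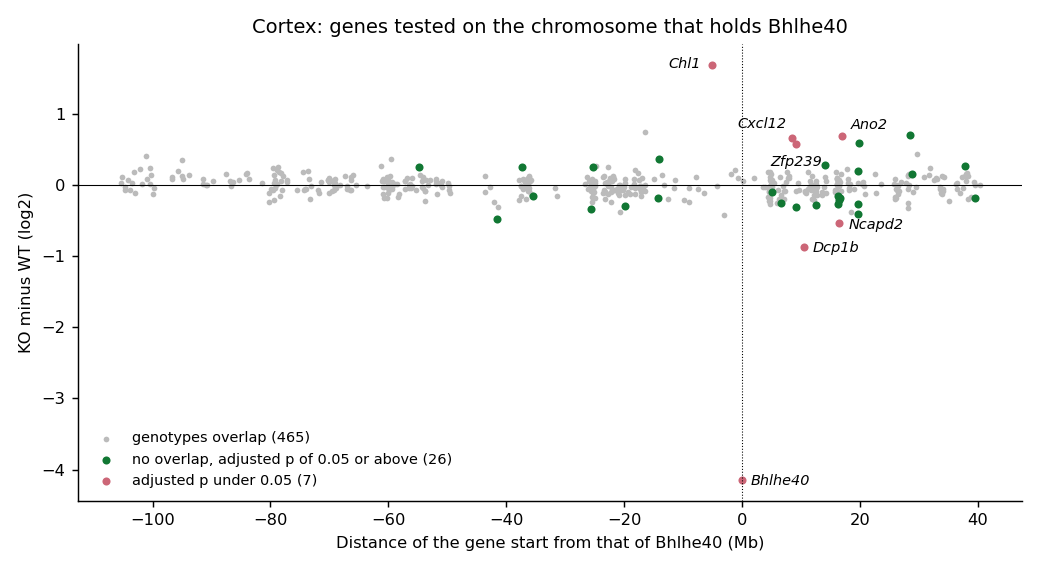
Each point is 1 of the 498 genes tested on chromosome 6, with the distance of its start from that of *Bhlhe40* (Mb) on the x axis and the KO minus WT difference (log2) on the y axis. Green marks genes whose genotypes do not overlap and red the 7 genes with an adjusted p under 0.05, which all lie within 20 Mb of *Bhlhe40*.

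*Ide* and *Fgfbp3* lie 351 kb apart on chromosome 19 and fell together. *Ide* is at 37268743 to 37334544 and *Fgfbp3* at 36917550 to 36919599 of GRCm38.p6. Of the 20 protein-coding neighbours nearest to *Ide*, 10 were tested and *Fgfbp3* alone passed. *Cpeb3* and *Marchf5*, which lie between them, differed by -0.03 and -0.22 and did not pass. *Ppp1r3c*, a glycogen-targeting subunit of protein phosphatase, lies on the far side of *Fgfbp3* and differed by 0.23 (unadjusted p = 0.0125), with KO above WT in every array. The other 11 genes that passed were spread over chromosomes 2, 3, 4, 9, 13, 15, 17 and X.

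The same probes were read in hippocampus and cerebellum of the same mice, so the other tissues are not independent animals. In hippocampus, 15 of the 20 genes had the same sign as in cortex, 13 passed in the same direction and 0 in the opposite one, where 11.8% of all hippocampal genes passed. In cerebellum, 15 of the 20 were detected, 11 passed in the same direction and 2 in the opposite one, where 36.8% of all genes passed. *Arsj*, *Ano2*, *Npy2r*, *Trhr* and *Gldn* were detected in 0 cerebellar arrays. *Chl1* differed by 1.69 in cortex, 1.06 in hippocampus and 1.83 in cerebellum. *Ide* differed by -0.80, -1.08 and -1.0 in the same order. *Npy2r*, *Trhr*, *Gldn*, *Cbln4*, *Pisd-ps2*, *Ccl21b* and *Zxda* passed in cortex and not in hippocampus, which alone does not show that the tissues differed. For *Npy2r*, *Trhr* and *Gldn*, not detected in cerebellum, that difference was not tested.

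Whether the KO effect was unequal between tissues was itself tested with limma in the 23 arrays, treating each mouse as a random block, for the 8947 genes detected in every tissue. Cortex and hippocampus differed for 317 of these genes (3.54%), and for 4 of the 15 cortex genes that could be tested. The effect in cortex minus that in hippocampus was 0.63 (adjusted p = 0.0176) for *Chl1*, whose rise was larger in cortex, -0.77 (adjusted p = 0.0176) for *Ccl21b*, 0.70 (adjusted p = 0.0256) for *Zxda* and 0.54 (adjusted p = 0.0454) for *Pisd-ps2*. The count of 317 ran from 0 to 742 when each mouse was left out in turn, and each of these 4 genes was lost in at least 3 of the 10 alternative analyses. For *Cbln4* the difference was -0.37 (adjusted p = 0.234). Cortex and cerebellum differed for 3002 genes (33.6%), and for 5 of the 15. Cerebellum had 3 WT arrays, without the mouse of WT replicate 2. *Cbln4* fell in cortex and rose in cerebellum, where it differed by 0.87, and the difference between the tissues was -1.41 (adjusted p = 2.84e-05). *Zxda* also went in opposite directions, with -0.37 in cerebellum and a difference of 0.99 (adjusted p = 0.000158). The difference was -0.76 (adjusted p = 0.000222) for *Bhlhe40*, -0.57 (adjusted p = 0.00776) for *Ccl21b* and 0.53 (adjusted p = 0.0104) for *Pisd-ps2*. The KO signal of *Bhlhe40* was low in cortex (mean 235, against 4361 in WT), so the size of its fall depends on the WT level. The paper describes lower *Bhlhe40* expression in cerebellum than in cortex and hippocampus, and unequal WT levels were not tested here.

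**Figure D4:**
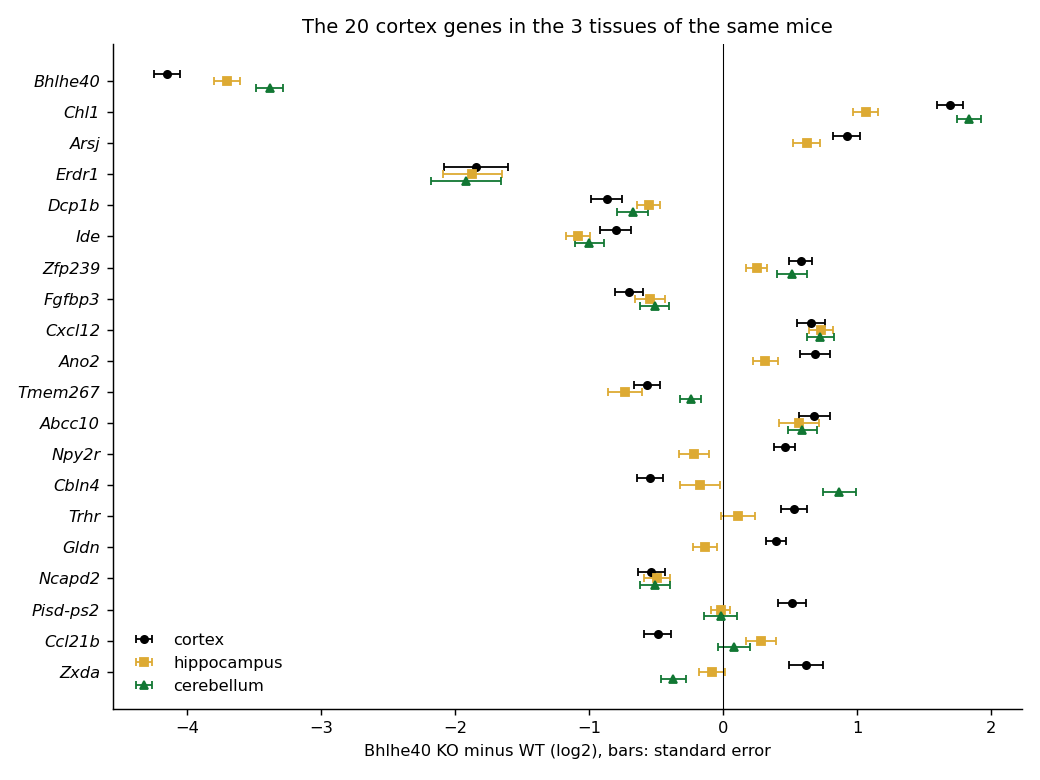
For each of the 20 genes, the KO minus WT difference (log2) is shown with its standard error in cortex (circles), hippocampus (squares) and cerebellum (triangles). Genes not detected in cerebellum have no triangle, and *Cbln4* and *Zxda* lie on opposite sides of 0 in cortex and cerebellum.

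No core clock gene passed in cortex, but only 0.206% of all genes tested did, so 0 in a list of this size says little. Of 17 core clock genes, 15 were tested and 0 passed in either direction, and 7 lay above 0, with a median of -0.01 that ran from -0.05 to 0.0063 with each array left out (48.4% of all genes tested lay above 0, with a median of -0.00456). *Ciart*, a repressor of the clock whose promoter is shown above, had the largest difference of the list, 0.40 (unadjusted p = 0.00207), with a signal of 682 ± 75.4 in WT and 811 ± 127 in KO (mean ± SD, n = 4 each) and overlapping groups. Without KO replicate 3 the difference of *Ciart* was 0.51 and it passed (adjusted p = 0.0404 from limma). *Nr1d2*, a nuclear receptor that represses *Arntl*, differed by 0.34 (unadjusted p = 0.00503). On the other side of 0 were *Npas2* and *Arntl*, the activators, with -0.23 (unadjusted p = 0.0373) and -0.21 (unadjusted p = 0.0379), and the kinase gene *Csnk1e* with -0.21 (unadjusted p = 0.0323). *Per1* and *Per2*, the period repressors, differed by -0.16 and 0.19. All KO arrays lay below all WT arrays for *Arntl*. *Clock* itself differed by 0.17, and the probe for *Cry1* was not detected. The tissues were taken within a window around midday, and the time for each mouse is not given in the sources used here.

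Of the output factors of the clock, *Nfil3*, a repressor of the D-box, had the smallest p. *Nfil3* read 807, 836, 927 and 772 in WT and 503, 489, 643 and 664 in KO, without overlap, and differed by -0.42 (adjusted p = 0.123 from limma). The activators of the same box, *Dbp*, *Tef* and *Hlf*, differed by 0.16, 0.25 and -0.09. Of the 4 factors 0 passed, where 0.206% of all genes tested did. Among 10 tested bHLH repressors and Id factors *Bhlhe40* alone passed. *Hes6* differed by -0.24 (unadjusted p = 0.0313) and *Hes1* by -0.21. The probe for *Bhlhe41*, the closest relative of *Bhlhe40*, was detected in 0 arrays of any tissue, so it gives no reading of this gene. The paper measured *Bhlhe41* mRNA and protein in hippocampus by other methods.

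Genes induced by neuronal activity lay mostly below 0, and 0 of 24 passed, where 0.206% of all genes tested did. Of these 24 genes, 5 lay above 0, with a median of -0.12 that ran from -0.18 to -0.075 with each array left out. An unadjusted p under 0.05 was reached by 7, each with a negative difference. Over all 9720 genes tested, 48.4% lay above 0 and 9.3% reached this p, 447 genes with a negative difference. *Fos*, the immediate early gene, read 1129.6, 1743, 1653 and 1094 in WT and 775, 781, 1035 and 769 in KO. The raw groups were apart by a narrow gap, between KO replicate 3 and WT replicate 4, and overlapped after normalization. The difference of *Fos* was -0.58 (adjusted p = 0.0948 from limma), and it passed in 4 of the alternative analyses (adjusted p down to 0.0149), among them those without WT replicate 4 or without KO replicate 3. *Junb* differed by -0.35 (unadjusted p = 0.0123), *Nptx2*, a pentraxin of excitatory synapses, by -0.33 (unadjusted p = 0.0296), and *Bdnf*, the neurotrophin, by -0.32 (unadjusted p = 0.0178). *Egr1* and *Homer1* differed by 0.04 and 0.0044, and *Arc* by -0.30 (unadjusted p = 0.111). The mean level of the list was 1.96 to 2.07 in WT and 1.71 to 1.98 in KO arrays, with KO replicate 1 inside the WT range.

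Few genes of the insulin list or the qRT-PCR panel and none of the synaptic receptor and vesicle lists passed. Of the 26 genes of insulin and IGF signalling tested, *Ide* alone passed, and 11 lay above 0. *Igfbp6*, a binding protein for insulin-like growth factors, differed by -0.43 (unadjusted p = 0.00118) with every KO array below every WT array, and *Igfbp4* and *Igfbp5* by -0.25 and -0.16. A qRT-PCR panel had 31 tested genes, of which *Chl1* rose, *Ide* fell and the others did not pass. That panel had been chosen on hippocampal values of these mice, so its counts are not independent evidence. *Kctd12*, an auxiliary subunit of GABA-B receptors, differed by 0.39 (unadjusted p = 0.003), *Scn3b*, a sodium channel subunit, by 0.29 (unadjusted p = 0.0158), and *Kcnab1*, a potassium channel subunit, by 0.35 (unadjusted p = 0.0208). The glutamate receptor genes *Gria1* and *Gria2* differed by 0.20 and 0.12. Of 13 AMPA and kainate, 11 NMDA, 7 GABA-A and 32 potassium channel genes tested, 0 passed. Over all genes tested 0.206% passed, so 0 in lists of this size says little about their members. *Kcnj9* and *Kcnmb4*, both potassium channel subunits, had every KO array below every WT array, with differences of -0.28 and -0.26. Of the 32 potassium channel genes, 3 showed no overlap between genotypes, where 4.25% of all genes tested did. Of 24 synaptic vesicle genes, 12 lay above 0 and 0 had an unadjusted p under 0.05, where 48.4% and 9.3% of all genes tested did.

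Large complexes showed small, uneven differences, and none of their genes passed. Over all genes tested, 0.206% passed and 48.4% lay above 0. Of 69 mitochondrial ribosomal protein genes, 17 lay above 0 (median -0.06), and of 32 proteasome genes 6 did (median -0.06). Of 55 cytosolic ribosomal protein genes, 40 lay above 0 (median 0.07), and of 69 genes for respiratory chain and ATP synthase subunits 42 did (median 0.03). KO replicate 1 stood apart in both, with a mean level of 4.14 for cytosolic ribosomal genes (3.62 to 3.83 in the other KO and 3.67 to 3.83 in the WT arrays) and 3.57 for respiratory chain genes (3.12 to 3.27 and 3.19 to 3.32). Without it the medians were -0.02 and -0.05. The medians of these lists also turned to -0.02 and -0.06 with median centring. That of the respiratory chain was also below 0 with quantile normalization, and those of the first 2 lists stayed below 0 with each scaling tried. Of 13 interferon-induced genes, 1 lay above 0 (median -0.07), and *Stat2*, which carries the interferon signal, had the smallest p, with a difference of -0.20 (unadjusted p = 0.0296). Over the 9715 genes with a known length, the difference had a Spearman correlation of 0.204 with gene length. Whether this trend bears on the list medians was not tested.

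Markers of striatal projection neurons, a cell type of the tissue beneath the cortex, lay above 0 in 12 of 12 tested genes, with a median of 0.32. Of these markers 0 passed, where over all genes tested 48.4% lay above 0 and 0.206% passed. *Rgs9*, a regulator of dopamine receptor signalling, read 1432, 2902, 2167 and 2995 in WT and 2038, 4518, 4306 and 2405 in KO. KO replicates 2 and 3 were the highest, and the other KO arrays lay within the WT range. *Rgs9* differed by 0.65 (unadjusted p = 0.00791), *Scn4b* by 0.43 (unadjusted p = 0.0052), *Ppp1r1b*, which encodes DARPP-32, by 0.45 (unadjusted p = 0.0265), and the dopamine receptor genes *Drd1* and *Drd2* by 0.39 and 0.29. The mean level of the list was 0.93 to 1.499 in WT and 1.11 to 2.01 in KO arrays, and the summed signal 10846 to 17873 and 12618 to 21503, so the groups overlapped. With this level as a covariate, chosen after its values were seen, 4 genes were higher and 5 lower in KO. *Bhlhe40*, *Chl1*, *Arsj*, *Erdr1*, *Dcp1b*, *Ide*, *Zfp239*, *Fgfbp3* and *Abcc10* were those that passed, and the other 11 kept their direction with limma adjusted p of 0.0619 (*Cxcl12*) to 0.28 (*Ccl21b*). Whether the dissection of the cortex took more striatum in some mice was not tested.

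The other cell type lists had medians closer to 0. Of 16 tested markers of cortical excitatory neurons, 6 lay above 0 (median -0.03). *Fezf2* and *Tbr1*, factors of deep-layer neurons, differed by -0.43 (unadjusted p = 0.00192) and -0.33 (unadjusted p = 0.0079), and *Bcl11b*, a factor of subcerebral neurons that striatal neurons also express, by 0.29 (unadjusted p = 0.00972). Of 11 astrocyte markers, 7 lay above 0 (median 0.16), and all KO arrays lay above all WT arrays for *Gja1*, *Aldoc* and *Slc1a2*, with differences of 0.24, 0.19 and 0.13. Over all genes tested, 1.75% had every KO array above every WT array. *Sox9*, an astrocyte transcription factor, had the largest absolute difference of the list and lay below 0, with -0.27 (unadjusted p = 0.0359). The median of the astrocyte list was 0.07 with median centring. Of 10 oligodendrocyte markers, 8 lay above 0 (median 0.07, and -0.03 with median centring), and *Mal* and *Ugt8a* had the smallest p, with 0.41 (unadjusted p = 0.00197) and 0.30 (unadjusted p = 0.0256). Microglial markers had a median of 0.03 over 10 genes (-0.02 to 0.04 with each array left out) and endothelial markers of 0.04 over 10 genes. *Ttr*, the main transcript of the choroid plexus, varied most of all genes within the genotypes. It read 1037, 687, 584 and 9482 in WT and 2969.6, 561, 510.4 and 492 in KO, with WT replicate 4 and KO replicate 1 high.

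**Figure D5:**
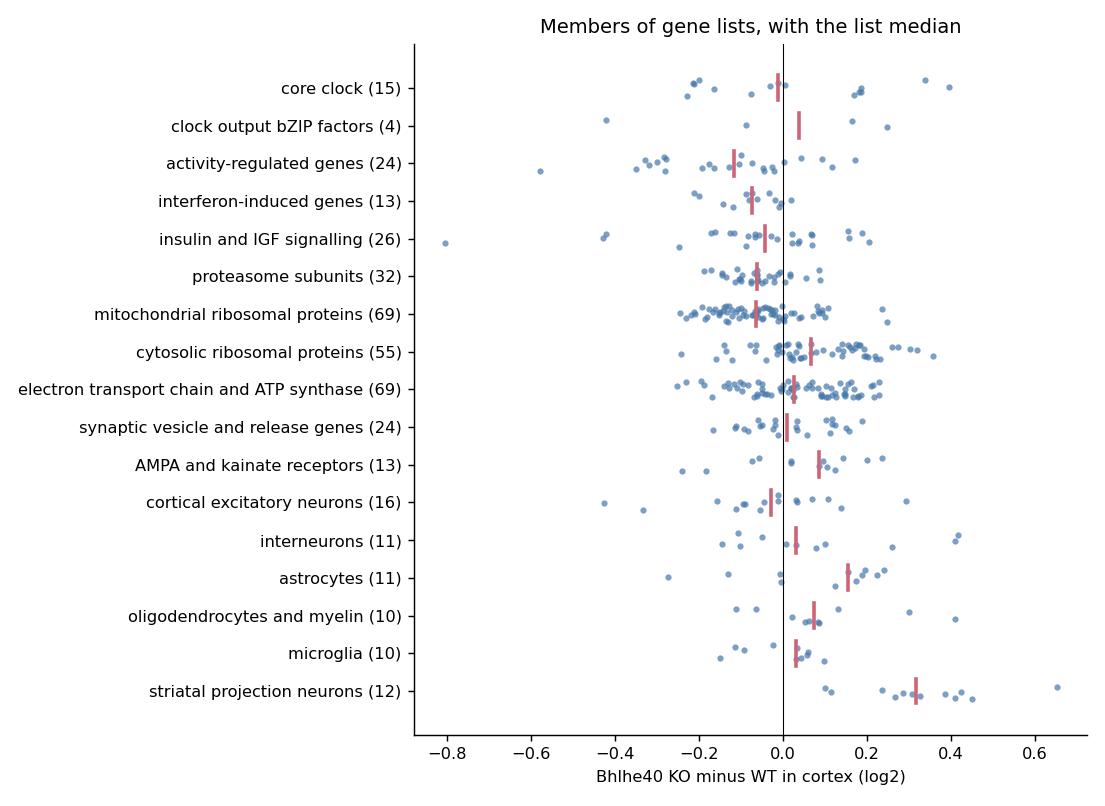
Each blue point is the KO minus WT difference in cortex (log2) of a tested member of the list named at the left, with the number of members tested in parentheses and the list median as a red line. The 12 striatal markers lie to the right of 0, and most activity-regulated, proteasome and mitochondrial ribosomal genes to its left.

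Several genes lay just beyond the threshold, and each of the 10 listed next passed in at least 1 alternative analysis (*Grp* in 6, *Polr3d* in 1). Among higher genes these were *Vat1l* (0.53, adjusted p = 0.0607), *Hap1* (0.68, adjusted p = 0.0722), *Apaf1* (0.53, adjusted p = 0.0722), *A2ml1* (0.59, adjusted p = 0.0883) and *Ptpro* (0.71, adjusted p = 0.1), all from limma. *Hap1* encodes the huntingtin-associated protein, *Apaf1* the core of the apoptosome, and *Ptpro* a receptor tyrosine phosphatase. *A2ml1* and *Ptpro* lie on chromosome 6. *Hap1* read 1705, 4107, 2987 and 2327 in WT and 3351, 3489, 3618 and 4299 in KO, with WT replicate 2 among the KO arrays. Without that array it rose by 0.86 (adjusted p = 0.000797 from limma). The other detected probes for *Hap1* differed by 0.14 and 0.0018 and did not pass, so its difference rests on the brightest probe. Among lower genes they were *Smpdl3a* (-0.46, adjusted p = 0.0722), *Grp* (-0.57, adjusted p = 0.0787), *Polr3d* (-0.28, adjusted p = 0.0948), *Fos* (-0.58, adjusted p = 0.0948) and *Socs2* (-0.52, adjusted p = 0.104). *Smpdl3a* is a phosphodiesterase of the sphingomyelinase family, *Grp* the gastrin-releasing peptide, *Polr3d* a subunit of RNA polymerase III and *Socs2* a suppressor of cytokine signalling. *Rtl8a* and *Rtl8b*, near-identical genes derived from a retrotransposon, had differences of -0.65 and -0.70 with overlapping groups, and WT replicate 2 read highest for both.

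Of the 20 genes that passed, all kept their direction in each of the up to 23 alternative analyses in which they were measured. *Bhlhe40*, *Chl1* and *Zfp239* also passed in every one. *Arsj*, *Ide* and *Fgfbp3* were lost only with an unmoderated test, and the other 14 in at least 1 other analysis. Without the array of WT replicate 1, WT replicate 2, KO replicate 3 or KO replicate 4, the count of higher genes moved by over 1.5-fold, to 6, 21, 19 and 5. At the thresholds of the study, leaving out KO replicate 3 gave 351 higher and 338 lower genes, where all 8 arrays gave 48 and 34, and leaving out WT replicate 1 gave 11 and 10.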

How the data were processed

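RNA of cortex, hippocampus and cerebellum was hybridised to mouse Illumina Ref8 BeadChips, 1 array per sample. The authors deposited the average bead signal of each probe (an intensity, not background-normalized) with a detection p-value, from GenomeStudio 2011.1 per the labels. They also deposited Z scores, which are the log signal of an array less its mean and divided by its SD. The depth of an array is its signal over background, and the number of mice limits the precision.

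Here each array's log2 signals had their mean over the 25697 probes subtracted, were divided by their SD, and were put back on a log2 scale with the average of the 23 array SDs (1.57). A probe was kept when its detection p was under 0.05 in at least 3 of the 8 cortex arrays, and the brightest kept probe stood for a gene. Of all probes, 23978 carried 1 gene symbol in the platform annotation and 1719 none. Entrez IDs of 23962 were matched to RefSeq genes of GRCm38.p6. KO and WT cortex were compared with lmFit and eBayes (with trend) of limma 3.58.1 in R 4.3.3, and p-values were adjusted by Benjamini-Hochberg over all 9720 genes. A gene passed with an adjusted p under 0.05. The study's thresholds were computed beside it (false discovery rate under 0.3). The tests were checked on simulated data. By the animal codes in the labels, the 8 cortex arrays came from 8 separate mice, which were also sampled in other tissues. Each p-value of the cortex comparison sets the KO minus WT difference against the moderated spread within genotypes of these 8 arrays. Alternatives were background correction, quantile normalization, median centring, the deposited Z scores, the detection filter, the choice of probe, the kind of test, a replicate block, array weights and leaving out each array.

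Genes were named by a rule. It takes the genes that passed (at most 30), the 5 of smallest p and the 5 of largest difference in each direction that did not pass, and all measured clock, bHLH and qRT-PCR panel genes. Of each other list it takes the 4 members of smallest p, the 2 brightest and the defining markers. It adds the 10 genes of largest spread within genotypes, the 5 of most extreme loading at each end of principal component 1, and the tested genes among the 10 neighbours on each side of *Bhlhe40* and *Ide*. Genes outside it (*Arc*, *Igfbp5*, *Nptx2* and *Slc1a2*) were chosen after their values were seen. Members and lists were chosen with earlier results of these data known.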

Additional observations from a re-analysis of the deposited data

Results flagged for a closer look

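In 9 cases the effect of the KO differed between tissues by limma's test of the difference itself. Values are the effect in cortex minus that in the other tissue, on the log2 scale. Against hippocampus they were 0.63 for *Chl1* (adjusted p = 0.0176), 0.54 for *Pisd-ps2* (adjusted p = 0.0454), -0.77 for *Ccl21b* (adjusted p = 0.0176) and 0.70 for *Zxda* (adjusted p = 0.0256). Over 10 alternatives these passed in 7, 4, 7 and 6, with adjusted p of 0.0128 to 0.0633, 0.0309 to 0.140, 0.0105 to 0.0566 and 0.0241 to 0.122. Against cerebellum they were -0.76 for *Bhlhe40* (adjusted p = 0.000222), -1.41 for *Cbln4* (adjusted p = 2.84e-05), 0.53 for *Pisd-ps2* (adjusted p = 0.0104), -0.57 for *Ccl21b* (adjusted p = 0.00776) and 0.99 for *Zxda* (adjusted p = 0.000158). Of these, *Pisd-ps2* passed in 8 of 10 alternatives (adjusted p up to 0.0686) and the others in 10 of 10. The tissues came from the same mice, with 3 WT arrays in cerebellum. For *Bhlhe40* the size of the fall depends on the WT level of each tissue, which was not compared. For *Pisd-ps2*, *Ccl21b* and *Zxda*, which copy the probe reports was not tested.

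An array far from the other 3 of its genotype, by Dixon's test, was looked for in 170 groups, namely 42 genes, the mean levels of 40 gene lists and 3 measures of the arrays in each genotype. It was found in 12. Chance gives about 1 in 20 for groups not chosen by their values. Some genes, *Rtl8a* and *Ttr* among them, were named for a large spread or an extreme loading, so that rate does not hold for them. *Ttr* is also a member of the choroid plexus list. KO replicate 3 was high for *Rtl8a* (2.23 on the log2 scale, others 1.19 to 1.29), and KO replicate 1 for *Ttr* (3.55, others 0.55 to 0.99). WT replicate 4 was high for choroid plexus markers (1.08, others -0.41 to -0.22). WT replicate 2 was low for genes of GABA-A receptors (1.17, others 1.28 to 1.29), calcium channels (1.20, others 1.30) and potassium channels (1.36, others 1.44 to 1.46). KO replicate 1 was low for GABA-A receptors (1.14, others 1.29 to 1.31) and potassium channels (1.35, others 1.44 to 1.45) and high for blood markers (1.85, others 1.29 to 1.38). WT replicate 3 was high for sodium channels (2.27, others 2.15 to 2.17) and low for endothelial markers (1.15, others 1.30 to 1.33). KO replicate 4 was high for cerebellar markers (0.17, others -0.09 to -0.07). None of these groups was of a gene that passed.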

How the results depend on the processing

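The 11 higher and 9 lower genes became 2 and 1 with an unmoderated test, and 20 and 17 with all 6 groups in 1 limma fit with the mouse as a random block. The higher genes alone became 4 when a detection p under 0.01 was required in every array, 6 without the trend in eBayes and 19 with array weights. At the thresholds of the study, the 48 higher genes became 75 with neqc, 31 with median centring, 27 with the mean of probes and 26 without the trend. Both counts there, 48 and 34, became 3 and 2 with an unmoderated test, 193 and 179 in the fit of 6 groups, and 103 and 60 with array weights. Alternatives chosen after seeing the data gave 22 higher genes, and 143 and 132 at the study's thresholds, without both WT replicate 2 and KO replicate 3. They gave 4 and 5 genes, and 28 and 17, with the striatal marker level as a covariate. The count of genes whose effect differed between cortex and hippocampus was 494 with quantile normalization.

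Leaving out each array in turn gave 5 to 21 higher and 6 to 11 lower genes, and 11 to 351 and 10 to 338 at the study's thresholds. The lowest counts came without WT replicate 1 and the highest without KO replicate 3 at those thresholds. For differences between tissues it gave 0 to 742 genes against hippocampus and 2107 to 3168 against cerebellum. The count against hippocampus was 0 without the mouse of WT replicate 4 (1901 at an unadjusted p under 0.05) or of KO replicate 2 (1746), 14 without WT replicate 2, 30 without KO replicate 3, 63 without KO replicate 4 and 742 without KO replicate 1.

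Of the 20 genes, 10 were lost without at least 1 array, most often *Zxda*, *Ccl21b* and *Pisd-ps2*. *Erdr1* was lost with robust eBayes (adjusted p = 0.292). With the mean of probes, *Dcp1b* (-0.42, adjusted p = 0.0570) and *Ncapd2* (adjusted p = 0.245) were lost. The labels do not pair WT with KO mice. Arrays of the same replicate number correlated at -0.345 to -0.0106 after removing group means. Taking out group means holds such correlations near 0 on average, so they cannot show whether mice were paired. With the replicate block 21 genes were higher and 11 lower. No gene that passed reversed. The causes of these changes were not tested. Signals near background, as for *Npy2r* and *Gldn*, limit what could be seen.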

Other observations

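*Ttr* had the largest spread within genotypes of all 9720 genes (SD 1.68 on the log2 scale), followed by *Xlr4a*, *Rtl8a*, *Erdr1* and *Rgs9*. Of 11 tested interneuron markers, 7 lay above 0 (median 0.03). *Calb2*, which encodes calretinin, differed by 0.42 (unadjusted p = 0.00503) and *Reln* by 0.26 (unadjusted p = 0.0129), with higher values in KO, and *Cck* and *Vip* by -0.14 and -0.11. *Calb2* is also in the list of thalamus markers, of which 2 of 4 tested lay above 0 (median 0.13). The mean level of that list was 0.96 to 1.13 in WT and 1.02 to 1.40 in KO arrays, highest in KO replicate 4. *Pdgfra*, a marker of oligodendrocyte precursors, differed by 0.34 (unadjusted p = 0.00593), and the 4 tested markers of these cells lay above 0, with a mean level of 1.64 to 1.74 in WT and 1.81 to 1.92 in KO arrays. Their summed signal before normalization overlapped, at 9291 to 10896 in WT and 8554 to 11223 in KO. Of these genes, *Erdr1* alone passed the adjusted threshold of limma with all arrays.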
